A study of Mus musculus with 2 samples.

Results

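The genes described here are 8 members of the intermediate filament family and its nuclear branch, the lamins: Des, Vim, Nes, Synm, Sync, Lmna, Lmnb1 and Lmnb2. They were taken by gene symbol from the 26100 genes listed in both matrices of the series, and each symbol matched 1 row. They were followed through MEF cells and 4 classes of iMPC cells that were cut from the counts of other genes. MEF cells are mouse embryonic fibroblasts kept in fibroblast medium. The iMPC cells, short for induced myogenic progenitor cells, derive from fibroblasts given MyoD together with F/R/C, an abbreviation the labels leave unexplained, and stayed in medium with F/R/C. Both cultures carry the genotype Tg:Pax7-nGFP/C57BL6;DBA2, so the Pax7 reporter is also in the control cells, and the series speaks of a single stable iMPC clone.

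Single-cell RNA was counted with the 10x Genomics droplet assay for the 3′ ends of transcripts, in which each captured molecule carries a unique molecular identifier (UMI). Each culture is 1 library. Without replicates no comparison could be tested, and the exact 95% intervals in brackets reflect counting error alone. The 6043 MEF cells had at most 20% mitochondrial UMIs. The 9349 iMPC cells met the same limit and had at least 8036 UMIs. The Pax7 class holds 2180 iMPC cells with at least 1 UMI of Pax7, the satellite cell transcription factor, and 0 of Myog. The Myog class holds 1724 cells with at least 5 UMIs of Myog, the gene of myogenin, which drives terminal differentiation, and at most 1 of Ckm. The Ckm class holds 1037 cells with at least 5 UMIs of Ckm, the muscle creatine kinase, and the Dcn class holds 553 cells with at least 5 UMIs of Dcn, the fibroblast matrix gene decorin. Median UMIs per cell were 18929 in MEF and 18729.5, 23857.5, 42148 and 18064 in the 4 classes in that order, so cells of the Ckm class were the deepest. A level is given in CPM, the UMIs of a gene as a share of all UMIs of the group, scaled to 1e+06. As UMIs of different genes are captured unequally, levels are compared between groups and not between genes.

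Marker genes were read before the members. The 8 myocyte markers summed to 95.9 CPM in MEF, 921 in the Pax7 class, 13093 in the Myog class, 46459 in the Ckm class and 4087 in the Dcn class. The 7 fibroblast markers summed to 5638, 563, 151, 66.0 and 2913 CPM in the same order. Both lists hold a gene that defines a class, so these sums are partly set by the rule. Dcn gave 1162 of the 2913 CPM in the Dcn class and 268 CPM in MEF. Ckm gave 409 of the 46459 CPM in the Ckm class. The Dcn class overlaps the others: 110 of its cells are also in the Pax7 class, 18 in the Myog class and 18 in the Ckm class, while the other 3 classes share 0 cells. The 4 smooth muscle markers summed to 9883 CPM in MEF, with Acta2 at 6108, and to at most 858 in any iMPC class. Endothelial and glial markers, which matter because their cells also make Vim and Nes, summed to at most 0.575 and 1.99 CPM in any group. The neuron list reached 179.8 CPM in the Pax7 class, nearly all of it Stmn2 at 172 CPM, with Elavl4 at 0.136. Of the kept cells, 16 barcodes occur in both libraries.

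Intermediate filaments are rope-like polymers that give cells and nuclei their mechanical strength. In muscle, desmin (Des) joins the Z-discs of neighbouring myofibrils to each other and to the membrane, while vimentin (Vim) is the filament of connective tissue cells and of immature myoblasts. Nestin (Nes), synemin (Synm) and syncoilin (Sync) are partners that associate with desmin or vimentin filaments. Lamins line the inside of the nuclear membrane: Lmna encodes lamins A and C, which are typical of differentiated and mechanically loaded cells, and Lmnb1 and Lmnb2 encode the B-type lamins.

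Against MEF, 5 of the 8 members were at least 2-fold higher in each of the 3 myogenic classes. The 5 were Des, Nes, Sync and Lmnb2 in every class, joined by Lmnb1 in the Pax7 and Myog classes and by Synm in the Ckm class. Among all genes that reached 10 CPM in either group, 14.8% were at least 2-fold higher in the Pax7 class, 15.9% in the Myog class and 13.9% in the Ckm class. In the Dcn class, 4 members (Des, Nes, Sync and Lmnb2) were at least 2-fold higher than in MEF, against 13% of genes. Vim was the 1 member at least 2-fold lower than MEF in the Myog class (26.9% of genes) and in the Ckm class (35.2%). None was that much lower in the Pax7 class (19.4% of genes) or the Dcn class (12.9%). The median log2 ratio of the 8 members to MEF was 2.25, 2.86, 2.62 and 1.46 in the Pax7, Myog, Ckm and Dcn classes, beside -0.09, -0.21, -0.54 and -0.10 over the genes compared. These 4 comparisons share the MEF cells. Sync reached 10 CPM only in the Myog and Ckm classes and Synm in no group, so both rest on few UMIs. The members were counted whatever their level, while the shares over all genes cover only genes at 10 CPM. Synm in the Ckm class and Sync in the Pax7 and Dcn classes therefore count among the members higher than MEF without having met that limit.

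**Figure D1:**
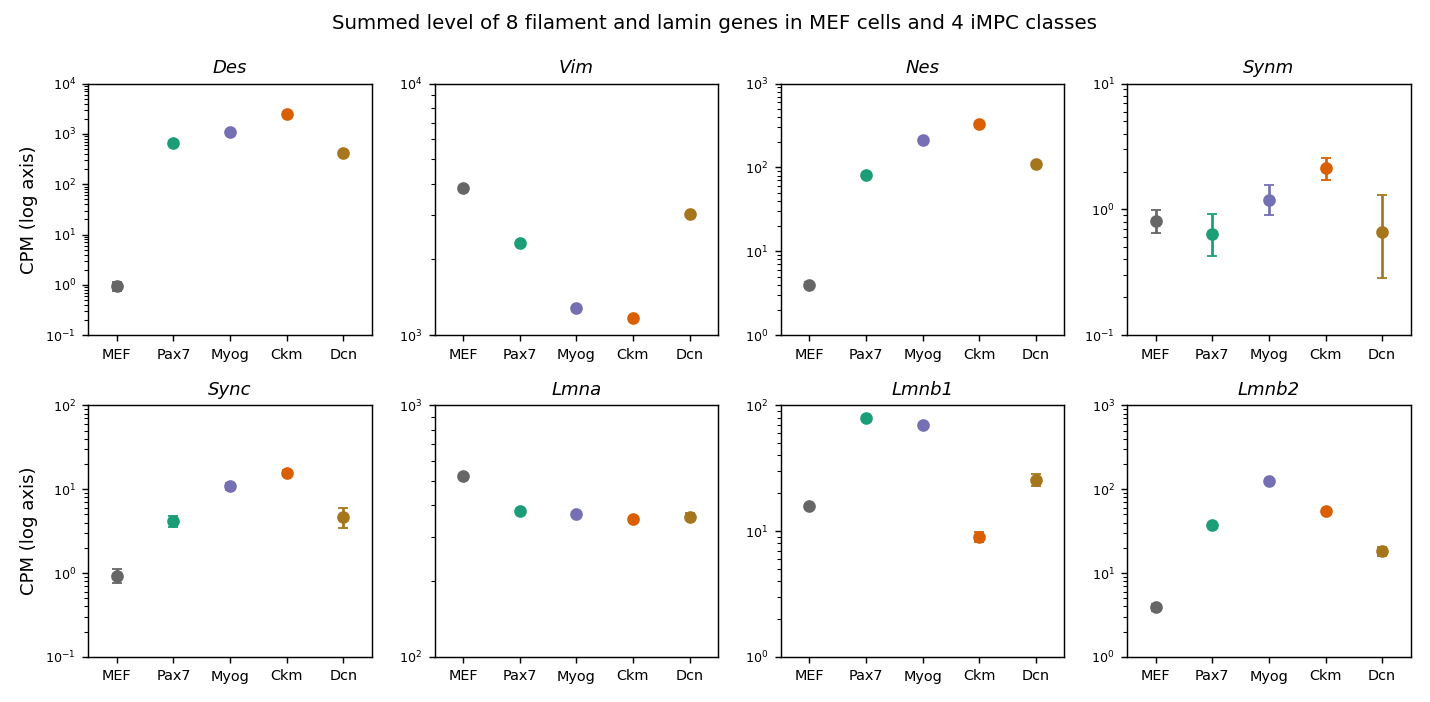
Level of each of the 8 genes in CPM on a log axis, in MEF cells and the Pax7, Myog, Ckm and Dcn classes of iMPC cells. Points are summed UMIs as CPM and bars are exact 95% counting intervals, often smaller than the point. Des stands at 0.932 CPM in MEF and 2537 CPM in the Ckm class, whereas Lmna stays between 355 and 525 CPM.

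Desmin showed the widest range of the 8. Des (ENSMUSG00000026208, chromosome 1, 75360329 to 75368579) stood at 0.932 CPM in MEF (0.766 to 1.12), 648 in the Pax7 class (641 to 656), 1098 in the Myog class (1089 to 1108), 2537 in the Ckm class (2523 to 2552) and 420.3 in the Dcn class (409 to 432). The levels thus rose in the order MEF, Dcn, Pax7, Myog and Ckm, and no neighbouring intervals overlap. The log2 ratio to MEF was 9.44 in the Pax7 class (9.17 to 9.73), 10.20 in the Myog class (9.93 to 10.49) and 11.41 in the Ckm class (11.14 to 11.69). Within the myogenic classes Des was 1.69-fold higher in Myog than in Pax7 cells, a log2 ratio of 0.76 that became 1.06 with classes assigned on thinned counts. Split by 6 cell cycle genes, as described with the lamins, the ratio was 1.10-fold in cells with their UMIs and 2.93-fold in cells without. Des was 2.31-fold higher in Ckm than in Myog cells.

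Nearly all myogenic cells held Des. With each cell thinned to 5000 UMIs, a Des UMI was found in 91.7% of Pax7 cells (90.5% to 92.9%), 96.3% of Myog cells, 100% of 1037 Ckm cells and 62.4% of Dcn cells (58.2% to 66.4%), but in 0.226% of MEF cells (0.120% to 0.386%). Thinning left out 284 MEF cells. Without it the shares were 99.2%, 99.9%, 100%, 90.2% and 0.463%. As Des was seen in most iMPC cells of every class, these shares do not separate cells that express it from cells that hold free RNA. In iMPC barcodes of 200 to 600 UMIs, below any cell, Des stood at 1562 CPM. When this profile was subtracted from the cells at 430 UMIs each, the log2 ratio of Des to MEF was 9.40 in the Pax7 class. For each UMI of Mylpf, a fast muscle light chain gene, there were 0.194 Des UMIs in those barcodes, 0.169 in the Ckm class, 0.261 in the Myog class, 0.347 in the Dcn class and 2.52 in the Pax7 class. In the same barcodes Mylpf itself stood at 1.67 times its level in the kept iMPC cells. Barcodes of 1 to 100 UMIs, whose profile was not subtracted, had Des at 1016 CPM and Mylpf at 1.04 times its level in the kept cells. They held 0.203 Des UMIs for each UMI of Mylpf. The part of free RNA in the Des level of each class was not tested beyond the subtraction.

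The 110 Des UMIs of the MEF library were not spread evenly. They lay in 28 cells, and 5 of these held 76 of them, with 37 in 1 cell. The 5 cells also held 3191 UMIs of the smooth muscle actin gene Acta2 and 244 of Cnn1, the gene of smooth muscle calponin, and 129 of the smooth muscle myosin Myh11 in 3 of the 5. They held 0 UMIs of Pax7, Myf5, Myod1 and Myog. These cells were picked for their Des counts, and their other genes are given as a description.

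Bases before the RefSeq gene start are shown for 3 members whose levels follow the order Pax7, Myog, Ckm, to let their control regions be compared. Synm follows the same order and is not shown. The bases shown are the 250 upstream on the plus strand of GRCm38.p6 from the RefSeq promoter table, which holds 7 of the 8 genes. Capitals mark each CANNTG, the E-box letters that MyoD and myogenin bind, read on both strands.
Des, chr1:75360042-75360291: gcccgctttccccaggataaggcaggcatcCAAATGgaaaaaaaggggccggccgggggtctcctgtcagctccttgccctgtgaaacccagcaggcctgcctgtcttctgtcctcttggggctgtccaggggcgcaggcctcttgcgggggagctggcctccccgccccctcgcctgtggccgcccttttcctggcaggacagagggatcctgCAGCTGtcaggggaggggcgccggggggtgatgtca
Sync, chr4:129287371-129287620: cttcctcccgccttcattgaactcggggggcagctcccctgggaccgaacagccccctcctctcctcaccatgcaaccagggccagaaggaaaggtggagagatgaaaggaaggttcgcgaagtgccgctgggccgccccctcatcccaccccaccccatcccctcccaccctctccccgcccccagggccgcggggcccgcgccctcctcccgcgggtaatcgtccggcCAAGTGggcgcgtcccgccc
Nes, chr3:87970843-87971092: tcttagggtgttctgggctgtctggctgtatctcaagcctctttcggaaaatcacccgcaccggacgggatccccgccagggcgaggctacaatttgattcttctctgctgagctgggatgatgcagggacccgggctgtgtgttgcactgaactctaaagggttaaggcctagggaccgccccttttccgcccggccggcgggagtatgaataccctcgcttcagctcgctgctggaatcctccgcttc
The Des window holds CAAATG and CAGCTG, beginning 220 and 36 bases before the RefSeq gene start. The Sync window holds CAAGTG, beginning 20 bases before it, and the Nes window holds no CANNTG. The windows of Vim and Lmna hold none, that of Synm 1, and the 2 windows of Lmnb2 hold 4 and 1. The windows of Vim and Lmna and the second of Lmnb2 lie inside the gene spans given here. They precede a RefSeq start but not the start of that span. Of 32851 mouse promoter windows of the same length, 66.2% hold a CANNTG and 13% a CAGCTG, so a match is common. Neither the CArG box of serum response factor (1.47% of windows) nor the MEF2 site (2.92%) was found in the windows of the 7 genes. No binding was measured here.

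Vimentin ran the other way. Vim (ENSMUSG00000026728, chromosome 2, 13573927 to 13582826) stood at 3839 CPM in MEF (3827 to 3850), 3042 in the Dcn class (3011 to 3073), 2325 in the Pax7 class (2311 to 2339), 1278 in the Myog class (1268 to 1289) and 1168 in the Ckm class (1158 to 1178). The Myog and Ckm classes were close, 1.09-fold apart, and all the other steps were larger. The step between the Dcn and Pax7 classes differed when cells were split by the 6 cell cycle genes. In cells without their UMIs Vim stood at 2987 and 2986 CPM in these classes, and in cells with them at 3425 and 2003 CPM. Over all cells the log2 ratio of Vim to MEF was -0.72 in the Pax7 class, -1.59 in the Myog class and -1.72 in the Ckm class (-1.73 to -1.70). Vim was nevertheless still found in 89.1% of Ckm cells thinned to 5000 UMIs (87.1% to 90.9%). The median Ckm cell held 10.5 Vim UMIs per 10000, and the middle 80% of cells ran from 2.14 to 24.6. In MEF the median was 36.8, and the middle 80% ran from 21.7 to 57.1.

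Both genes were next read in the same cells, as the share of Des in the summed Des and Vim UMIs of each cell with at least 10 of them. The median share was 0% in MEF, 6.51% in the Dcn class, 23.4% in the Pax7 class, 41.2% in the Myog class and 67.1% in the Ckm class. Cells with more Des than Vim UMIs made up 7.19% of the Pax7 class (156 cells), 33.3% of the Myog class (564) and 71.3% of the Ckm class (739). The spread within the Ckm class was wide, from 36.5% at the 10th percentile to 94.5% at the 90th. Between the Myog and Ckm classes Des differed more than Vim. Vim was 1.01-fold higher in Ckm cells among cells without UMIs of 6 cell cycle genes described with the lamins, an interval that holds no difference, whereas Des was 1.70-fold higher. The share is a ratio of UMIs and not of molecules of the 2 genes.

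**Figure D2:**
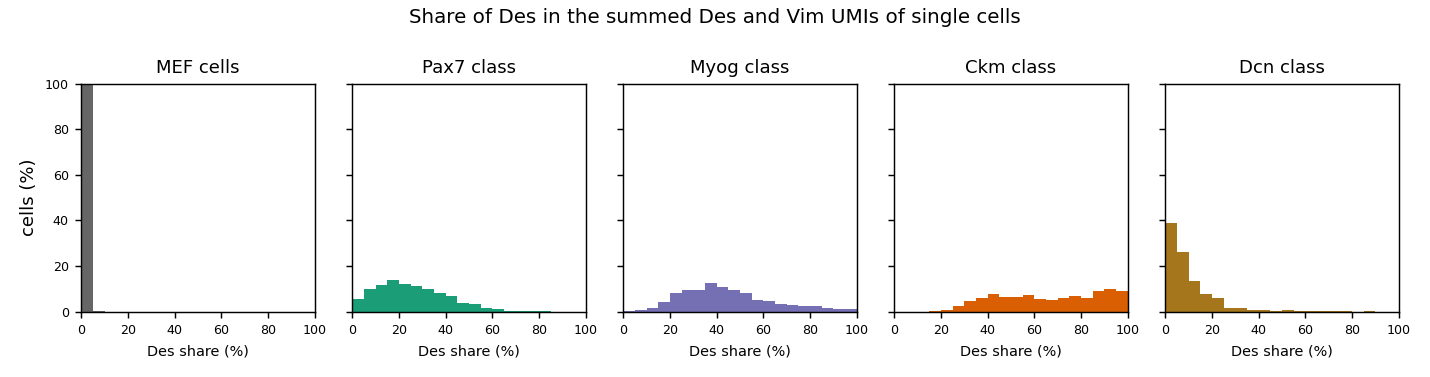
Share of Des in the summed Des and Vim UMIs of single cells (horizontal axis, percent) against the percent of cells in bins of 5 percentage points, 1 panel for each group. MEF cells lie at 0, and the median moves from 23.4% in the Pax7 class to 41.2% in the Myog class and 67.1% in the Ckm class.

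Nestin, like desmin, was lowest in MEF and highest in the Ckm class, but its Dcn and Pax7 levels stood in the other order. Nes (ENSMUSG00000004891, chromosome 3, 87971078 to 87980451) stood at 3.97 CPM in MEF (3.62 to 4.35), 80.5 in the Pax7 class (77.9 to 83.2), 109 in the Dcn class (103 to 115), 212 in the Myog class (208 to 216) and 330 in the Ckm class (325 to 335). All 5 levels lie apart. The log2 ratio to MEF was 4.34 in the Pax7 class (4.20 to 4.48), 5.74 in the Myog class and 6.37 in the Ckm class (6.24 to 6.51). Ckm cells were 1.56-fold above Myog cells, a log2 ratio of 0.64 that became 0.0016 when the classes were assigned on thinned counts. Dcn cells were 1.35-fold above Pax7 cells, a log2 ratio of 0.43 that fell as low as 0.03 under alternative processing. Split by the 6 cell cycle genes, this ratio was 0.10 in cells without their UMIs (-0.06 to 0.26) and 0.61 in cells with them. At 5000 UMIs per cell, Nes was found in 28.5% of Pax7, 52.1% of Myog, 69.1% of Ckm, 32.4% of Dcn and 2.05% of MEF cells. Without thinning these shares were 62.6%, 86.7%, 96.7%, 66.9% and 5.69%.

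The minor partners were near the limit of detection. Sync (ENSMUSG00000001333, chromosome 4, 129287617 to 129308559) stood at 0.923 CPM in MEF (0.758 to 1.11), 4.16 in the Pax7 class (3.58 to 4.81), 4.60 in the Dcn class (3.48 to 5.97), 10.8 in the Myog class (9.90 to 11.8) and 15.8 in the Ckm class (14.7 to 16.9). The Pax7 and Dcn classes did not differ beyond these intervals, and the other neighbours did. The log2 ratio of Ckm cells to MEF was 4.09 (3.80 to 4.40) from 767 and 109 UMIs.

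Synm (ENSMUSG00000030554, chromosome 7, 67730160 to 67759742) stood at 0.805 CPM in MEF from 95 UMIs, 0.636 in the Pax7 class from 28, 0.657 in the Dcn class from 8, 1.19 in the Myog class from 55 and 2.12 in the Ckm class from 103. The Ckm class was 2.63-fold above MEF, a log2 ratio of 1.40 (0.98 to 1.81). The intervals of MEF, Pax7 and Dcn overlap, as do those of MEF and Myog, and the Ckm class stands apart from all 4. The ratio of Myog cells to MEF, 0.57 on the log2 scale, had an interval of 0.06 to 1.06. In 3 of 11 alternatives the Synm ratio of the Dcn class to MEF passed 2-fold downward, to as low as -2.70. Of the 8 Synm UMIs of the Dcn class, 7 lie in the 18 cells that are also in the Ckm class and 1 in the 407 cells of no other class.

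Lamin A/C varied least. Lmna (ENSMUSG00000028063, chromosome 3, 88480147 to 88509956) stood at 525 CPM in MEF (521 to 529), 381 in the Pax7 class (375 to 387), 371 in the Myog class (366 to 377), 361 in the Dcn class (351 to 372) and 355 in the Ckm class (349 to 360.0). MEF was 1.48-fold above the Ckm class, and neighbours among the 4 iMPC classes have overlapping intervals. The log2 ratio of Ckm to Pax7 cells was -0.10 (-0.13 to -0.07), and that of Myog to Pax7 cells was -0.04 and changed sign in 2 of 12 alternatives. Lmna was found in 78.3% of Pax7, 81.6% of Myog, 79.6% of Ckm, 77.2% of Dcn and 89.2% of MEF cells at 5000 UMIs.

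The B-type lamins moved apart from each other. Lmnb1 (ENSMUSG00000024590, chromosome 18, 56707813 to 56753424) stood at 15.7 CPM in MEF (15.0 to 16.4), 79.0 in the Pax7 class (76.4 to 81.7), 70.4 in the Myog class (68.0 to 72.9), 25.7 in the Dcn class (22.9 to 28.7) and 9.04 in the Ckm class (8.22 to 9.93). The Ckm class was thus 7.79-fold below the Myog class, a log2 ratio of -2.96 (-3.11 to -2.82), and 8.74-fold below the Pax7 class. Within cells split by the cycle genes described below, Ckm cells were 4.30-fold below Myog cells without cycle UMIs and 2.89-fold below them with such UMIs. Against MEF, Lmnb1 was 5.03-fold higher in Pax7 cells and 1.74-fold lower in Ckm cells. Among cells without cycle UMIs the latter difference was 1.05-fold, with an interval that holds no difference. The 1.74-fold difference grew past 2-fold, to as much as -1.49 on the log2 scale, when Ckm cells were assigned on thinned counts or when doublets were removed.

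Lmnb2 (ENSMUSG00000062075, chromosome 10, 80901203 to 80918245) peaked in the Myog class. It stood at 3.89 CPM in MEF (3.54 to 4.26), 18.1 in the Dcn class (15.8 to 20.6), 37.4 in the Pax7 class (35.7 to 39.3), 55.7 in the Ckm class (53.6 to 57.9) and 126 in the Myog class (123 to 129). None of these intervals overlap. Myog cells were 3.36-fold above Pax7 cells, a log2 ratio of 1.75 (1.67 to 1.83), and 32.4-fold above MEF. Ckm cells were 2.26-fold below Myog cells but 1.49-fold above Pax7 cells, a log2 ratio of 0.57 that vanished (-0.0040) with classes assigned on thinned counts. At 5000 UMIs Lmnb2 was found in 15.3% of Pax7 cells (13.8% to 16.8%), 45.2% of Myog cells (42.8% to 47.6%), 23.1% of Ckm cells (20.6% to 25.8%) and 1.89% of MEF cells.

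As a share of the summed lamin UMIs, Lmna took 96.4% in MEF, 76.6% in the Pax7 class, 65.4% in the Myog class, 84.6% in the Ckm class and 89.2% in the Dcn class. The share of Lmnb2 was 0.714% in MEF and 7.52%, 22.2%, 13.3% and 4.46% in the Pax7, Myog, Ckm and Dcn classes. That of Lmnb1 was 2.88%, 15.9%, 12.4%, 2.16% and 6.35% in the same order of groups. The lamin mixture of Ckm cells was thus nearer to MEF in its Lmnb1 share than in its Lmnb2 share.

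Lamin B1 is known to be lost from cells that stop dividing in senescence, so members were compared between cells with at least 5 summed UMIs of Mki67, Top2a, Ccnb1, Cdk1, Ube2c and Cenpf, genes of proliferating cells, and cells with 0, both read on counts thinned to 8036 UMIs, which left out 661 MEF cells. In the Pax7 class 1053 cells had such cycle UMIs and 521 had none. The Myog class had 612 and 548, MEF had 464 and 3706, the Ckm class had 55 and 724 and the Dcn class had 62 and 340. Cells with cycle UMIs were deeper, at a median of 22508 against 15659 UMIs in the Pax7 class and 27664.5 against 23359 in the Myog class.

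Lmnb1 was higher with cycle UMIs in all 5 groups: 120 against 12.4 CPM in the Pax7 class, 127 against 23.1 in the Myog class, 87.5 against 5.64 in MEF, 44.0 against 5.37 in the Ckm class and 98.5 against 7.25 in the Dcn class. The log2 ratios were 3.28, 2.46, 3.96, 3.04 and 3.76. Among cells with cycle UMIs, Lmnb1 differed little between the Pax7 and Myog classes, by 0.08 on the log2 scale with an interval that holds 0, and the Pax7 class was 1.38-fold above MEF in place of 5.03-fold over all cells. Among cells without cycle UMIs the latter ratio was 2.20-fold.

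Lmnb2 differed from Lmnb1 in the Myog and Ckm classes. With and without cycle UMIs it stood at 55.7 and 7.83 CPM in the Pax7 class, a log2 ratio of 2.83 (2.48 to 3.21). In the Myog class it stood at 144 and 106 CPM, a log2 ratio of 0.44 (0.35 to 0.53). The Ckm class had 58.8 and 50.7 CPM, a log2 ratio of 0.21 (-0.01 to 0.43). The log2 ratio was 1.89 in MEF and 2.37 in the Dcn class. Among cells without cycle UMIs, Myog cells were 13.5-fold above Pax7 cells, a log2 ratio of 3.76. For Lmnb1 the same comparison gave 1.86-fold. Lmna was slightly higher with cycle UMIs in every group, by 0.09 on the log2 scale in the Ckm class, 0.20 in the Myog class, 0.30 in the Pax7 class, 0.31 in MEF and 0.51 in the Dcn class.

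**Figure D3:**
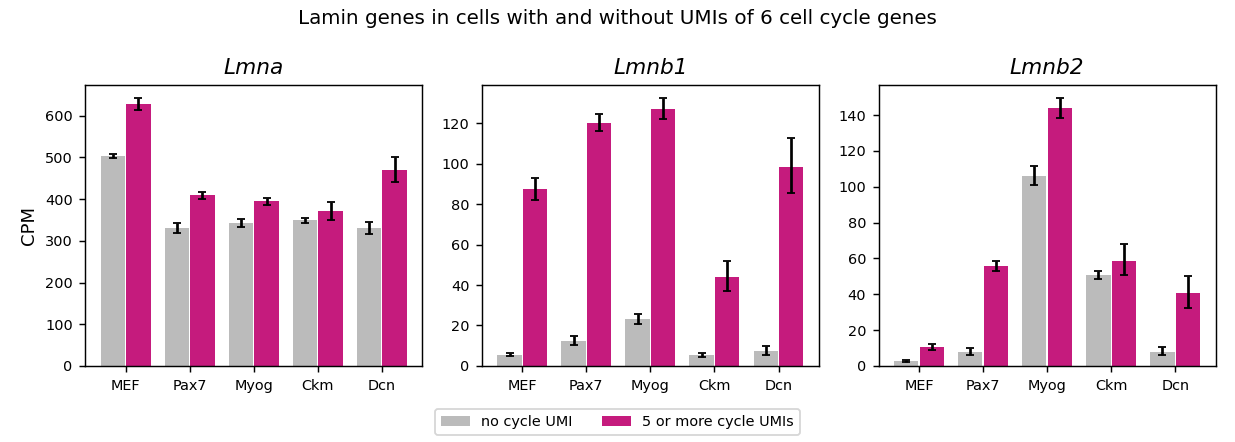
CPM of the 3 lamin genes in cells with 5 or more UMIs of 6 cell cycle genes and in cells with none, for MEF cells and the 4 iMPC classes, with exact 95% counting intervals as bars. Lmnb1 is low without cycle UMIs in every group, while Lmnb2 stands at 106 CPM in Myog cells without them and at 7.83 CPM in such Pax7 cells.

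The filament genes differed with this split in directions that depended on the class. In the Myog class Des was 2.16-fold higher in cells without cycle UMIs (1594 against 736 CPM) and Nes 1.71-fold higher (266 against 156 CPM). These cells also had more Myog, 1517 against 1036 CPM. In the Pax7 class Des was 1.23-fold higher with cycle UMIs (667 against 544 CPM), and Vim was 1.49-fold higher without them (2986 against 2003 CPM). In MEF, Vim stood at 3742 CPM with cycle UMIs and 3813 without, while Nes was 4.58-fold higher with them (11.7 against 2.56 CPM).

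The members were then followed along the counts of Myog and Ckm themselves, both thinned to 8036 UMIs per cell. The Myog steps were chosen after the class values had been seen. In cells with at most 1 Ckm UMI, Lmnb2 stood at 35.1 CPM with 0 Myog UMIs, 41.6 with 1 to 2, 54.4 with 3 to 4, 76.6 with 5 to 9, 134 with 10 to 19 and 204 with 20 or more. Each step lay outside the interval of the step before. Over the same steps the share of cells with cycle UMIs fell from 43.3% to 14.0%, and Lmnb1 stood at 72.3 CPM in the first, 42.2 at 5 to 9 UMIs and 55.5 in the last. Des was highest at 3 to 4 and 5 to 9 Myog UMIs, with 1672 and 1664 CPM, and lower at 20 or more, with 1011 CPM. Cells of these middle steps were also the deepest, at medians of 28044.5 and 30859 UMIs against 23141 in the last. The myocyte marker Myh3 was highest there too, at 1225 and 1424 CPM against 845 in the last. Whether this bears on the Des levels was not tested. Nes went from 84.6 to 303 CPM, and its last steps, 298 (292 to 305) and 303 (292 to 314), did not differ beyond counting error. Lmna was lowest at 3 to 4 Myog UMIs, with 317 CPM, and stood at 450 CPM (437 to 463) with 20 or more.

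Along Ckm, in cells with a Myog or Ckm UMI, Des rose from 1141 CPM at 0 Ckm UMIs to 1665 at 1, 2293 at 2 to 4 and 3106 at 5 to 19. Vim went down over the same steps, from 1573 to 1519, 1222 and 947 CPM. Lmnb1 went from 61.5 to 29.1, 11.6 and 5.61 CPM, beside Mki67, a proliferation gene, at 78.5, 33.3, 10.8 and 3.74 CPM. Lmnb2 went from 90.7 to 73.2, 70.2 and 40.2 CPM, a smaller relative drop than that of Lmnb1. Nes was highest at 2 to 4 Ckm UMIs, with 344 CPM (336 to 352), and stood at 291 CPM (282 to 301) at 5 to 19. The last step holds 278 cells.

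**Figure D4:**
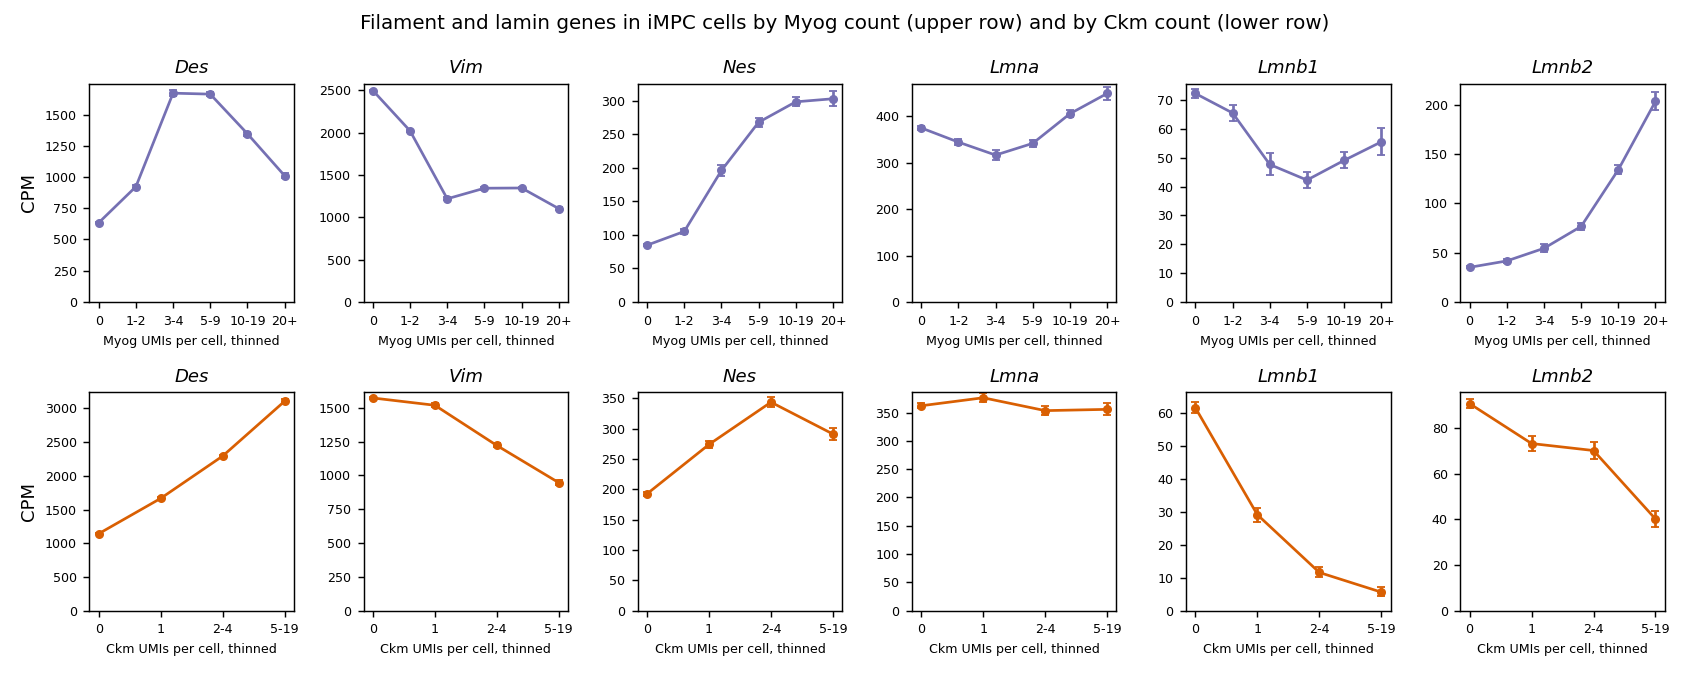
CPM of 6 members in iMPC cells grouped by the Myog UMIs of a cell with at most 1 Ckm UMI (upper row) and by the Ckm UMIs of a cell with a Myog or Ckm UMI (lower row), both on counts thinned to 8036 UMIs, with exact 95% counting intervals. Lmnb2 goes up along Myog to 204 CPM and down along Ckm to 40.2 CPM, and Des goes up along Ckm to 3106 CPM.

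The Dcn class has 2913 CPM of fibroblast markers, 1162 of them from Dcn, the gene that defines it. This class did not have the filament levels of MEF. Its Des level of 420.3 CPM was 451-fold and its Nes level 27.3-fold above MEF, while Vim was 1.26-fold below. Part of the Des came from few cells: the 18 cells that are also in the Ckm class held 1914 of the 5117 Des UMIs. In the 407 Dcn cells of no other class, Des stood at 287 CPM (275 to 299), Vim at 3208, Nes at 100.02 (93.3 to 107), Lmnb1 at 20.6 and Lmnb2 at 9.88. These 407 cells still had 1755 CPM of myocyte markers. For the whole Dcn class the log2 ratio of Des to MEF was 8.82, and it was 8.74 with free RNA subtracted, 8.27 with overlapping cells left out and 8.16 with doublets removed. Against the Pax7 class, 2 members, Lmnb1 and Lmnb2, were at least 2-fold lower in the Dcn class (6.77% of genes), and 0 were higher (11% of genes). With overlapping cells left out, with each cell weighted alike or with doublets removed, 4 members were lower, as Des and Synm joined them. Within cells split by cycle UMIs, neither Lmnb1 nor Lmnb2 was 2-fold lower in the Dcn class. Among cells without cycle UMIs the log2 ratio was -0.77 for Lmnb1 (-1.30 to -0.26) and 0.007 for Lmnb2 (-0.55 to 0.55). Thus Lmnb1 was still lower there, with an interval that also holds a 2-fold difference. Among cells with them it was -0.29 for Lmnb1 (-0.50 to -0.08) and -0.46 for Lmnb2 (-0.79 to -0.14).

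Between the myogenic classes, 3 of the 8 members (Nes, Sync and Lmnb2) were at least 2-fold higher in Myog than in Pax7 cells, beside 7.02% of genes, and 0 were lower, beside 11.5%. In Ckm against Myog cells Des was the 1 member at least 2-fold higher (6.53% of genes), and Lmnb1 and Lmnb2 were lower (13.8%). Over the whole span, in Ckm against Pax7 cells, Des, Nes, Synm and Sync were at least 2-fold higher, 4 of 8 beside 12.2% of genes, with Des 3.91-fold higher. Lmnb1 was the 1 member lower, beside 30.2% of genes, and Vim at 1.99-fold lower was just within the limit. Vim passed it in 4 of 12 alternatives, to as low as -1.23 on the log2 scale with classes assigned on thinned counts, which makes 2 members lower.

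Other genes that work with these proteins were read from lists. Among 16 other intermediate filament genes, 5 reached 10 CPM in the Pax7 class or MEF. The neuronal filament genes Prph (11.4 against 0.0762 CPM), Nefm (12.4 against 0.762) and Nefl were at least 2-fold higher in Pax7 cells. The keratin Krt18 was lower (0.0454 against 14.2 CPM). These 3 higher and 1 lower stand beside 14.8% and 19.4% of all genes. Against MEF, 0 of 2 were higher and 1 lower in the Myog class (15.9% and 26.9% of genes). The Dcn class also had 0 of 2 higher and 1 lower (13% and 12.9%). The Ckm class had 1 of 3 higher and 1 lower (13.9% and 35.2%). These counts leave out genes below 10 CPM in both groups. Prph, Nefm and Nefl were left out in the Myog class, at 7.38, 9.91 and 9.70 CPM. In MEF they stood at 0.0762, 0.762 and 3.03 CPM, and in the Dcn class at 0.821, 4.27 and 5.26 CPM. Krt7 and Bfsp1, also left out, were lower in the Myog class than in MEF (0.433 against 1.90 and 0.108 against 1.63 CPM). In the Ckm class Prph stood at 1.56 and Nefm at 2.82 CPM, whereas the keratin Krt19 stood at 14.1 CPM, against 2.88 in MEF. Of the 4 neuron markers, Stmn2 was highest in the Pax7 class, Snap25 in the Dcn class (20.1 CPM), Dcx in the Ckm class (17.4 CPM) and Elavl4 in MEF (0.551 CPM).

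Among 19 genes that anchor, bundle or chaperone filaments at the Z-disc and membrane, 15 reached 10 CPM in Ckm cells or MEF, and 11 of these were at least 2-fold higher in Ckm cells and 0 lower, beside 13.9% and 35.2% of all genes. They include the Z-disc genes Csrp3 (0.0169 CPM in MEF, 8.66 in Pax7, 171 in Myog and 584 in Ckm cells), Ldb3 (3.29, 6.86, 79.9 and 277 CPM), Myot (0, 0.863, 11.9 and 66.8 CPM) and Xirp2 (0.0254, 1.14, 25.7 and 103 CPM). Only 10 of the genes reached 10 CPM in Pax7 cells or MEF. None of these was 2-fold higher in Pax7 cells (14.8% of all genes), and 4 (Plec, Cryab, Hspb1 and Dmd) were lower (19.4%). Csrp3, Myot and Xirp2 were below 10 CPM in both groups and so left out, but were well over 2-fold higher in Pax7 cells. Ldb3, Nebl (0.818 against 0.0847 CPM) and Xirp1 (1.07 against 0) were also left out and higher, Ldb3 only just past 2-fold. Dsp, left out too, was lower (0.0227 against 0.881 CPM). Des itself was 696-fold above MEF in these Pax7 cells.

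Of 15 nuclear envelope partners of lamins, 13 were measured in Pax7 cells against MEF, with 4 at least 2-fold higher (Syne2, Lbr, Tmpo and Nrm) and 0 lower, beside 14.8% and 19.4% of all genes. In the Myog class 4 of 12 were higher and 2 lower (15.9% and 26.9% of genes), and in the Ckm class 2 of 11 (Sun1 and Tmpo) were higher and 3 (Emd, Tor1aip1 and Tmem43) lower (13.9% and 35.2% of genes). In the Dcn class 2 of 13 (Sun1 and Nrm) were higher and 0 lower (13% and 12.9% of genes). Tmpo, the lamina-associated polypeptide gene, stood at 32.9 CPM in MEF, 117 in Pax7, 120 in Myog, 106 in Ckm and 45.4 in Dcn cells. Nrm, which encodes nurim of the inner nuclear membrane, stood at 4.73, 27.4, 13.3, 5.75 and 11.1 CPM, and Syne2, a nesprin gene, at 6.03, 20.7, 8.49, 3.06 and 11.9 CPM. Tmem43, another inner membrane gene, was at 34.1 CPM in MEF, 38.5 in Pax7, 15.1 in Myog, 11.4 in Ckm and 51.5 in Dcn cells. Of 7 muscle membrane and nuclear envelope genes, 6 were at least 2-fold higher in Ckm cells than in MEF and 0 lower, beside 13.9% and 35.2% of all genes. Tmem38a, a channel of the sarcoplasmic reticulum and nuclear membranes, stood at 6.74, 11.04, 83.1 and 213 CPM in MEF, Pax7, Myog and Ckm cells. Popdc3 was already at 57.5 CPM in Pax7 cells against 0.178 in MEF.

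Of 5 genes that process lamin precursors, 4 were measured. Icmt, the methyltransferase of the lamin C-terminus, was lower in all iMPC classes, at 33.2 CPM in MEF and 4.95, 4.11, 3.99 and 7.72 in the Pax7, Myog, Ckm and Dcn classes. Zmpste24, the prelamin A protease, stood at 42.4 CPM in MEF and 24.1, 19.1, 15.0 and 34.9 CPM in the 4 classes. In Ckm cells these 2 genes and Rce1 were at least 2-fold below MEF and 0 genes were above, beside 35.2% and 13.9% of all genes, so being lower was common in this comparison.

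Genes with the most similar pattern were sought among 3925 genes with at least 50 CPM in their highest group, by the root mean square distance of centred log2(CPM + 1) over the 5 groups. With 5 groups from 2 libraries this describes shape only. Nearest to Des were Tnnt1, a troponin of slow muscle, Atp2a1, the calcium pump of fast muscle, and Jsrp1, at distances of 0.54, 0.80 and 0.91. Nearest to Nes was Reep1 at 0.25, to Sync Rnf217 and Acsl1 at 0.12 each, and to Vim the clathrin heavy chain gene Cltc at 0.07. For Synm, at no more than 2.12 CPM, the added 1 CPM sets much of the shape, and no match is read. Nearest to Lmnb1 were Ube2c, Cdk1 and Ccnb1 at 0.09 to 0.14, which are among the 6 cycle genes used above. Nearest to Lmnb2 were Ralgps2 and Dipk2a at 0.33 and 0.34, and no gene came closer. Nearest to Lmna were Tma7, Tfg and Hsd17b10 at 0.03 to 0.05.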

How the data were processed

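The authors deposited unnormalised UMI counts, 1 matrix for each library. Their processing notes list Cell Ranger 4.0, Seurat 3.2.3 and the build GRCm38.p6. The authors' iMPC matrix lists 6794880 barcodes with no cells called and 282903287 UMIs, and the MEF matrix lists 6113 barcodes and 118541302 UMIs. The labels give MEF the protocol text of iMPC beside a treatment label that names fibroblast medium. MEF was described by the treatment label.

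The iMPC minimum of 8036 UMIs is 10% of the 99th percentile of the top 10000 barcodes. UMIs were summed per class and divided by the class total. Intervals are exact Poisson for levels, exact conditional for ratios and Clopper-Pearson for shares, all at 95%. A difference was called at 2-fold. Shares over all genes and counts of other lists cover genes that reached 10 CPM in either group, while the 8 members were counted at any level. A gene with 0 counts in a group was set to a floor of 3 counts. Doublets were removed only in an alternative, with Scrublet in scanpy 1.11.5. Its own threshold marked 337 iMPC cells. In MEF it marked 1 cell and so did not work, and the 249 highest scores were removed. Analysis used Python 3.11.15, numpy 2.4.6, scipy 1.17.1 and pandas 2.3.3. Ratios were tested on simulated data. Gene positions are from GENCODE M21 (GRCm38). From each list the text names at most the 4 genes with the largest range over the groups, and for each member up to 3 genes nearest in pattern. Other list and marker genes, such as those that make up a count of 5 or fewer, were named after their values had been seen. Members, lists and steps were chosen with earlier results of these data known. Alternatives for Ckm against Pax7 cells were added after seeing the data. So were the look at MEF cells with Des UMIs and the comparisons of classes within cells with or without cycle UMIs. The split by cycle UMIs was planned for MEF and the Pax7 and Myog classes and was extended to the Ckm and Dcn classes. Alternatives covered class overlap, filters, scaling, weighting, thinning, class thresholds, doublets and free RNA.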

Additional observations from a re-analysis of the deposited data

Results flagged for a closer look

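The difference between cells with and without cycle UMIs pointed in opposite directions in the Pax7 and Myog classes for 2 members. For Des the log2 ratio was 0.29 in the Pax7 class and -1.11 in the Myog class. For Vim it was -0.58 in the Pax7 class and 0.36 in the Myog class. Counting intervals lay on opposite sides of 0 in each case, but with 1 library the difference between the classes was not tested.

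All 8 members were found in iMPC barcodes of 200 to 600 UMIs, which enter no comparison and hold too few UMIs to be called cells. A count of 0 would allow 0.141 CPM there. Des stood at 1562 CPM, Vim at 1058, Lmna at 308, Nes at 144, Lmnb2 at 48.7, Lmnb1 at 23.9, Sync at 6.12 and Synm at 0.800 CPM. Relative to the kept iMPC cells, Des stood at 1.30 times its level and Vim at 0.564 times. The barcodes of 1 to 100 UMIs differed from these. There Des stood at 0.847 times its level in the kept cells (1016 CPM) and Vim at 0.817 times (1533 CPM).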

How the results depend on the processing

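All alternatives were planned except those for Ckm against Pax7 cells, chosen after seeing the data, and none reversed a member that differed 2-fold. Of 192 counts of members under 12 alternatives, 178 stayed within 1.5 times the reported count and 14 moved. The count lower in Ckm cells than in MEF was 2 in place of 1 with classes assigned on thinned counts and with doublets removed, since Lmnb1 joined Vim. The count lower in Dcn cells than in MEF was 1 in place of 0 with overlapping cells left out, with cells weighted alike and with doublets removed. In each of these 3 settings the count lower in Dcn than in Pax7 cells was 4 in place of 2, and it was 1 under median-ratio scaling. The count higher in Ckm than in Myog cells was 2 in place of 1 with classes assigned on thinned counts. The count lower in Ckm than in Pax7 cells was 2 in place of 1, as Vim joined Lmnb1, without mitochondrial and ribosomal protein genes, with classes assigned on thinned counts, with doublets removed and with free RNA subtracted. Causes were not tested. Among these ratios, signs changed only where the reported value was within 2-fold (Lmna and Lmnb1 in Myog against Pax7 cells, Synm and Sync in Dcn against Pax7 cells, Lmnb1 in Dcn cells against MEF, Lmnb2 in Ckm against Pax7 cells). Of 766 ratios of single members, 560 stayed within their counting interval and 206 moved. Scaling by the median of gene ratios shifted log2 ratios by at most 0.10. No paired analysis was possible because each group has 1 library. Synm, with 8 to 103 UMIs in a group, is limited by depth, and shares of cells follow depth by construction.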

Other observations

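The 4 classes leave out 4001 iMPC cells, 42.8% of those kept, with a median of 18951 UMIs. In them Des stood at 865 CPM (859 to 871), between its levels in the Pax7 and Myog classes, and Vim at 2244 CPM (2234 to 2254), just below the Pax7 class. Nes stood at 127 CPM and Lmnb2 at 48.4, both between the Pax7 and Myog classes. Lmnb1 at 63.7 CPM (62.0 to 65.4) was below both. Lmna stood at 368 CPM (364 to 372), within counting error of the Myog class.

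At 20 or more Ckm UMIs after thinning there were 7 iMPC cells, too few for the account above. They held 927 Des UMIs against 112 of Vim, or 4280 and 517 CPM, with 18 UMIs of Nes, 2 of Lmnb2 and 1 of Lmnb1.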
